A study of Mus musculus with 6 samples.

Results

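Amino acid transporter genes of the solute carrier families SLC1, SLC3, SLC6, SLC7, SLC36, SLC38 and SLC43 were compared between TKO mESCs grown in 2i and in serum. Members were the protein-coding genes of GENCODE M21 whose symbol is the name of 1 of these 7 families followed by the letter a and digits alone, apart from 1 SLC38 gene, which gave 60 of the 53390 genes with a transcript in the files. Slc6a20a and Slc6a20b, whose symbols end in a letter, were therefore not members and were counted among other carriers. The families had 7 (SLC1), 2 (SLC3), 19 (SLC6), 15 (SLC7), 4 (SLC36), 10 (SLC38) and 3 (SLC43) members. TKO mESCs are a male J1-derived mouse line of 129S4/SvJae origin without functional Dnmt1, Dnmt3a and Dnmt3b. All 6 libraries carried these 3 deletions, so nothing below compares them with cells that have the methyltransferases, and no wild-type library was analysed here. TKO-serum (3 libraries) was grown in high-glucose DMEM with 15% fetal calf serum, added non-essential amino acids and pyruvate, and LIF at 500 U/ml. TKO-2i (3 libraries) was grown in N2B27, a serum-free mixture of DMEM F-12 and Neurobasal with N2, B27 and bovine serum albumin, with 1000 U/ml of LIF added, and with 1 µM PD0325901 to block MEK and 3 µM CHIR99021 to block GSK3. The media therefore differed in basal medium, amino acid supply, serum, LIF dose and inhibitors at once, and the shares of these in any difference cannot be told apart. Only 1 cell line was used. The labels call the replicates biological, but nothing states that they came from separate cultures, so the p-values measure the spread between these libraries, which may be technical.

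Amino acids cross the plasma membrane and the membranes of lysosomes through carriers that either use ion gradients to concentrate their substrate or exchange an internal amino acid for an external one. The SLC7 light chains reach the cell surface only when bound to a glycoprotein heavy chain of the SLC3 family, whereas the cationic amino acid transporters of SLC7 work without one. Stem cells and other dividing cells draw glutamine, leucine, arginine and cystine from the medium through these carriers, and shortage of amino acids is known to raise several of their mRNAs through the kinase GCN2 and the transcription factor ATF4.

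Poly(A)-selected, strand-specific libraries had been made from 500 ng of RNA. TKO-2i had totals of 46228700, 44180642 and 43896549 estimated counts per library, and TKO-serum had 38274042, 51932739 and 44827609, in the order of the replicate numbers, which is kept below. Levels are given as TPM, which sums to the same total in every library, is scaled for transcript length and is the only scale on which genes were compared with each other. Fold changes are of TKO-2i over TKO-serum on the log2 scale, from summed counts. The adjusted p comes from the quasi-likelihood test of edgeR, adjusted by the Benjamini-Hochberg method over the 18177 genes that passed its filter on low counts. SE is the standard error of the fitted value, and "rose" and "fell" are used of genes with an adjusted p under 0.05. Counts and TPM can differ in fold where the mixture of long and short transcripts of a gene differs. In bulk RNA, fewer cells with a transcript and less of it in each cell cannot be told apart.

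The libraries had the markers of mouse ES cells. The 8 pluripotency genes summed to 5500, 5028 and 4986 TPM in TKO-2i and to 6345, 6013 and 6118 TPM in TKO-serum, with Dppa5a the most abundant, and none of them was under 1 TPM in any library. The 4 genes taken as marks of 2i (Prdm14, Tfcp2l1, Klf4 and Tbx3) summed to 370, 454 and 388 TPM in TKO-2i and to 156, 168 and 164 TPM in TKO-serum, which matched the labelled media. The 6 feeder fibroblast genes summed to between 0.841 and 1.36 TPM in TKO-2i and between 1.28 and 1.83 TPM in TKO-serum, with Col1a1 the most abundant and the other 5 genes under 1 TPM in every library. Col3a1 and Dcn were at 0 in TKO-2i replicates 1 and 3, Postn in TKO-2i replicate 1 and Lum in TKO-serum replicates 2 and 3, and Col1a2 fell (log2 fold change -1.55, adjusted p = 6.7e-04 by edgeR's test). Markers of differentiated cells differed between the media. The 5 neural genes summed to 92.2, 93.0 and 89.1 TPM in TKO-2i and to 140, 143 and 139 TPM in TKO-serum, with Tubb3 the most abundant, and 4 of the 5 fell in TKO-2i, while Nes rose (log2 fold change 0.54, adjusted p = 4.5e-05 by edgeR's test). The 6 primitive endoderm genes, led by Gata4, summed to 4.42, 5.34 and 4.17 TPM in TKO-2i and to 8.28, 9.81 and 10.6 TPM in TKO-serum. The 5 genes of primed epiblast and streak summed to 20.1, 20.5 and 25.3 TPM in TKO-2i and to 28.6, 31.8 and 30.0 TPM in TKO-serum, but their members went opposite ways. T (log2 fold change 5.58) and Eomes (2.81), of the streak, rose, while Otx2 (-3.01) and Fgf5 (-4.62), of primed epiblast, fell, and Otx2 was the most abundant in serum and T in 2i. The 5 trophectoderm genes summed to between 32.7 and 36.3 TPM in TKO-2i and between 24.3 and 25.9 TPM in TKO-serum, mostly from Tfap2c. Of these genes Tfap2c (0.51) and Cdx2 (4.28) rose, and Gata3 (-3.33) and Krt7 (-1.75) fell. The part of these cells in the transporter results was not tested.

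Of the 60 members, 45 passed the filter and were tested. In TKO-2i, 18 rose and 21 fell, and 6 did not pass the threshold. That is 40.0% up and 46.7% down among tested members, beside 31.9% up and 30.6% down among all tested genes. With a fold of at least 2, 4 members rose and 12 fell, beside 7.72% and 15.6% of all tested genes. The median log2 fold change of tested members was -0.21 and their median absolute log2 fold change was 0.81, against 0.01 and 0.44 for all tested genes. Among the 32 members with a mean of at least 1 TPM in either medium, all of which were tested, 15 rose and 13 fell (46.9% and 40.6%), where 36.9% and 28.7% of all genes at that level did, and 4 rose and 6 fell by a fold of at least 2, where 7.45% and 11.7% of all genes at that level did. The median log2 fold change of these 32 was 0.06. Among the 13 tested members under 1 TPM in both media, 3 rose and 8 fell (23.1% and 61.5%), where 12.4% and 37.8% of all tested genes at that level did, and a gene that passes the filter through 1 medium alone has to differ.

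**Figure D1:**
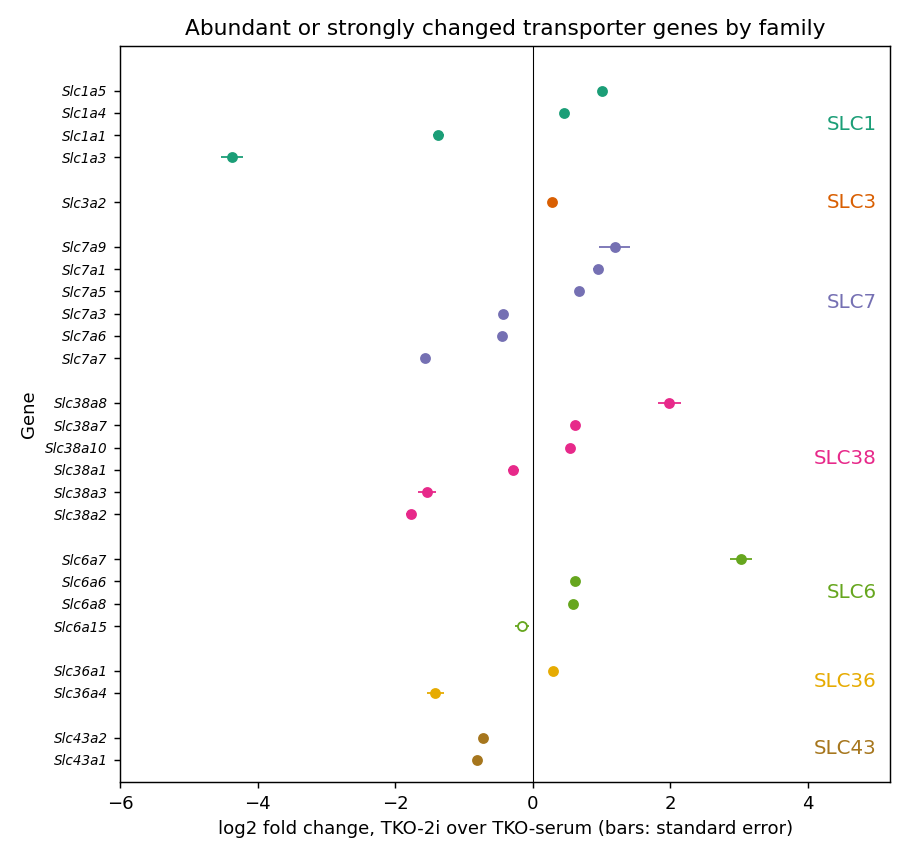
Log2 fold change of TKO-2i over TKO-serum (horizontal axis) for the 25 transporter genes with a mean of at least 10 TPM in either medium, or with at least 1 TPM, a fold of at least 2 and an adjusted p under 0.05, grouped and coloured by family. Bars are standard errors, filled points have an adjusted p under 0.05, and SLC1, SLC7, SLC36 and SLC38 each hold filled points on both sides of 0.

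The summed TPM of all 60 members was 932, 1117 and 944 in TKO-2i and 993, 1079 and 1063 in TKO-serum. These ranges overlapped, and the log2 ratio of the means was -0.07 (exact two-sided permutation test over libraries, p = 0.5). With 3 libraries against 3, the smallest p the exact test can give is 0.1. Adjustment over the 7 families cannot lower it, so no family could pass 0.05. SLC43, the family of facilitative carriers, summed to 17.8, 22.2 and 17.5 TPM in TKO-2i and to 34.7, 35.8 and 34.7 TPM in TKO-serum, a log2 ratio of -0.87. SLC38, the sodium-coupled neutral amino acid transporters, summed to 168, 202 and 169 TPM in TKO-2i and to 250, 285 and 268 TPM in TKO-serum, a log2 ratio of -0.57. In both families every 2i library was below every serum library. SLC1 had 73.6, 86.0 and 78.4 TPM in TKO-2i and 53.5, 56.7 and 59.7 TPM in TKO-serum, a log2 ratio of 0.49. SLC6 had 182, 223 and 184 TPM in TKO-2i and 130, 149 and 144 TPM in TKO-serum, a log2 ratio of 0.48. SLC3 had 193, 217 and 191.5 TPM in TKO-2i and 177, 178 and 184 TPM in TKO-serum, a log2 ratio of 0.16. In these 3 families every 2i library was above every serum library, and the exact permutation p of all 5 families without overlap was 0.1 (adjusted 0.14). SLC7 had 286, 351 and 293 TPM in TKO-2i and 336, 363 and 362 TPM in TKO-serum, a log2 ratio of -0.19 (exact permutation p = 0.2, adjusted 0.23), which turned to 0.24 when CPM, not scaled for length, was summed. SLC36 had 11.5, 15.3 and 11.1 TPM in TKO-2i and 11.7, 12.3 and 11.6 TPM in TKO-serum (log2 ratio 0.09, exact permutation p = 1), and without TKO-2i replicate 2 its log2 ratio was -0.07. The direction of a family often rested on 1 gene. Without its most abundant member the log2 ratio of SLC1 (Slc1a5) was -0.54, that of SLC38 (Slc38a2) was 0.09 and that of SLC36 (Slc36a1) was -1.06.

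TKO-2i replicate 2 had the highest TPM of its group for 39 of the 45 tested members, and for 65.9% of all tested genes. By CPM it was highest for 25 of the 45. Without this library 16 of 46 tested members rose and 24 fell, beside 33.8% and 33.4% of the 18710 genes then tested.

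**Figure D2:**
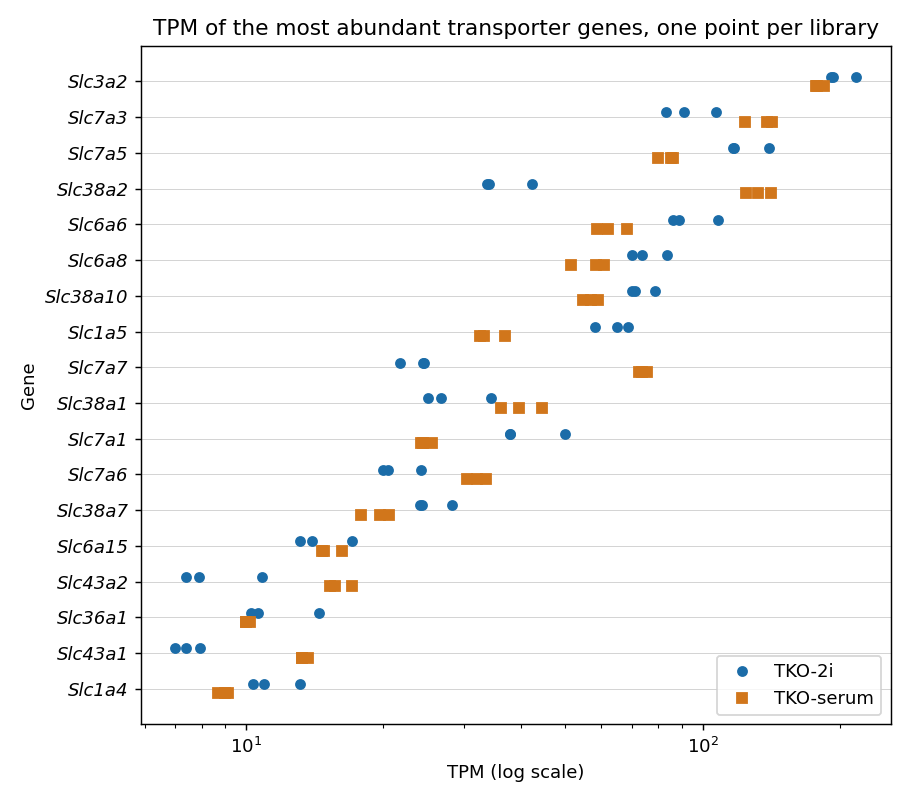
TPM on a log axis (horizontal) of the 18 transporter genes with a mean of at least 10 TPM in either medium, with 1 point per library, circles for TKO-2i and squares for TKO-serum. Slc3a2 was the most abundant gene in both media, Slc38a2 and Slc7a7 lay far to the left in TKO-2i, and the points of Slc6a15 overlapped.

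Slc3a2 encodes the 4F2 heavy chain, CD98, which carries most SLC7 light chains to the cell surface. It had 193, 217 and 191 TPM in TKO-2i and 177, 178 and 184 TPM in TKO-serum, and was the most abundant member in both media, with 20.1% and 17.2% of the summed TPM. The 2i libraries were all above the serum libraries, by a small margin, and the log2 fold change was 0.28 (SE 0.06, adjusted p = 0.0027). With limma on log2(TPM + 1) this rise missed the threshold (0.16, adjusted p = 0.055). Slc3a1, the heavy chain of kidney and gut, had a highest value of 0.145 TPM and was not tested. The genes lie at chr19:8706882-8723369 and chr17:85028376-85064236 of GRCm38, the build of all coordinates here.

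The light chains changed in opposite directions. Slc7a5, LAT1, which exchanges leucine and other large neutral amino acids, had 117, 140 and 117 TPM in TKO-2i and 80.1, 86.3 and 85.2 TPM in TKO-serum. All 2i libraries were above all serum libraries, with a log2 fold change of 0.67 (SE 0.05, adjusted p = 6.8e-06). Slc7a7, y+LAT1, which exports arginine and lysine in exchange for neutral amino acids and sodium, had 24.5, 24.6 and 21.8 TPM in TKO-2i and 73.8, 75.5 and 72.6 TPM in TKO-serum. The groups were far apart relative to their spread, and the log2 fold change was -1.56 (SE 0.06, adjusted p = 2.1e-07). Slc7a6, y+LAT2, its close relative, had 19.9, 24.2 and 20.4 TPM in TKO-2i and 30.5, 32.1 and 33.5 TPM in TKO-serum, again with 2i below serum throughout (log2 fold change -0.44, SE 0.05, adjusted p = 7.1e-05). Slc7a5 and Slc7a6 lie on chromosome 8, at chr8:121881150-121907694 and chr8:106168857-106198706, and Slc7a7 at chr14:54369442-54417780. Slc7a7 overlaps Oxa1l on the opposite strand (mean 49.5 TPM), and whether the quantification used the strand is not given in the sources used here.

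The other light chains were scarce. Slc7a8, LAT2, had 0.485, 0.654 and 0.454 TPM in TKO-2i and 0.448, 0.414 and 0.295 TPM in TKO-serum. The groups lay next to each other without overlap (log2 fold change 0.54, adjusted p = 0.042 by edgeR's test), and the call was lost with DESeq2 (adjusted p = 0.071) and when any 1 library other than TKO-serum replicate 1 was left out (adjusted p between 0.056 and 0.13). Slc7a11, xCT, which takes up cystine in exchange for glutamate, had 0.288, 0.609 and 0.302 TPM in TKO-2i and 0.194, 0.342 and 0.249 TPM in TKO-serum. The groups overlapped in TPM, the log2 fold change was 0.81 (adjusted p = 0.035 by edgeR's test), and the call was lost without TKO-2i replicate 2 (0.48, adjusted p = 0.11), TKO-serum replicate 1 (0.67, adjusted p = 0.10) or TKO-serum replicate 3 (0.84, adjusted p = 0.080). Slc7a10, Asc-1, had a highest value of 0.139 TPM and was not tested. Slc7a9, which pairs with Slc3a1 to take up cystine and dibasic amino acids in kidney and gut, had 1.02, 1.54 and 1.37 TPM in TKO-2i and 0.308, 0.564 and 0.705 TPM in TKO-serum. It rose without overlap (log2 fold change 1.19, SE 0.22, adjusted p = 0.0016) while its heavy chain stayed close to 0 TPM. Slc7a13, another light chain of kidney, had a highest value of 0.0663 TPM and was not tested.

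Set against each other, the summed TPM of the 6 light chains known to pair with Slc3a2 was 162, 190 and 160 in TKO-2i and 185, 195 and 192 in TKO-serum. The heavy chain had 1.19, 1.15 and 1.20 TPM for each TPM of these light chains in TKO-2i and 0.955, 0.913 and 0.959 in TKO-serum. The groups did not overlap, and the ratio was on either side of 1. Slc7a5 made up 72.2%, 73.6% and 73.1% of the light chain TPM in TKO-2i and 43.3%, 44.3% and 44.4% in TKO-serum. Slc7a7 made up 15.1%, 12.9% and 13.6% in TKO-2i and 39.9%, 38.8% and 37.8% in TKO-serum. The mixture thus differed far more between media than between replicates, and Slc7a7, near Slc7a5 in serum, was near Slc7a6 in 2i. These sums by role were formed with the values known and were not tested.

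**Figure D3:**
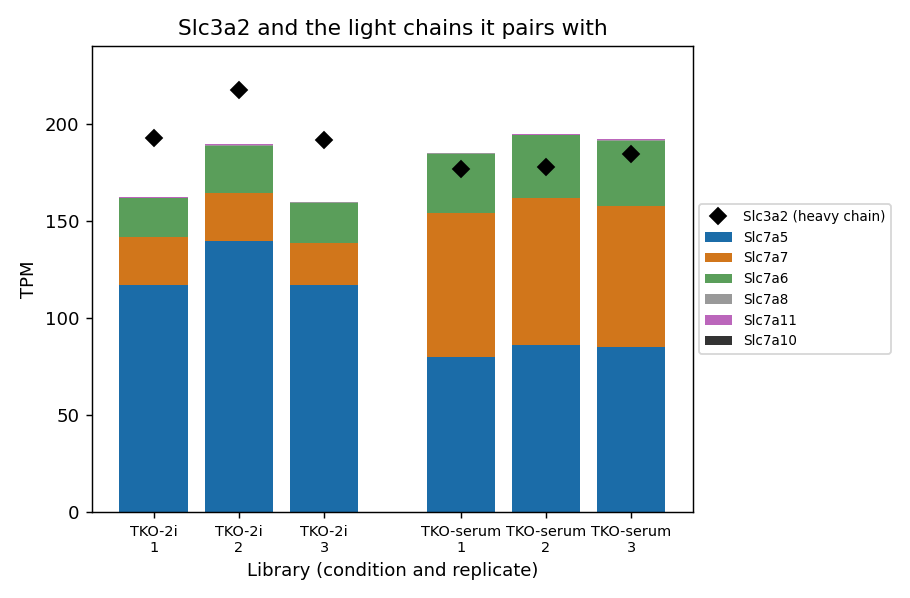
Stacked bars give the TPM (vertical axis) of the 6 light chains known to pair with Slc3a2 in each of the 6 libraries, and diamonds the TPM of Slc3a2. The diamonds stand above the bars in TKO-2i and below them in TKO-serum, and Slc7a5 fills 72.2% to 73.6% of the bars in TKO-2i and 43.3% to 44.4% in TKO-serum.

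The cationic amino acid transporters, which import arginine, lysine and ornithine, exchanged weight between paralogs. Slc7a1, CAT1, had 37.95, 50.1 and 37.97 TPM in TKO-2i and 24.2, 25.6 and 24.5 TPM in TKO-serum. It rose, without overlap, with a log2 fold change of 0.94 (SE 0.07, adjusted p = 5.9e-06). Slc7a3, CAT3, the most abundant SLC7 gene in TKO-serum, had 83.1, 107 and 91.2 TPM in TKO-2i and 124, 139 and 142 TPM in TKO-serum. It fell, also without overlap, with a log2 fold change of -0.43 (SE 0.06, adjusted p = 3.8e-04). Slc7a2, CAT2, was near 1 TPM and fell (log2 fold change -0.64, adjusted p = 0.021 by edgeR's test), a call lost without TKO-2i replicate 3 (-0.52, adjusted p = 0.061) or TKO-serum replicate 2 (-0.62, adjusted p = 0.060). Slc7a1 gave 31.2%, 31.7% and 29.3% of the TPM of these 3 genes in TKO-2i and 16.2%, 15.5% and 14.6% in TKO-serum. Their sum was 122, 158 and 130 TPM in TKO-2i and 149, 165 and 167 TPM in TKO-serum, so the groups overlapped in total while their makeup did not. The related Slc7a4 and Slc7a14, whose substrates are less well known, did not pass the threshold (adjusted p = 0.45 and 0.999 by edgeR's test). Slc7a1 lies at chr5:148327410-148399904 and Slc7a3 at chrX:101079210-101086020.

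Glutamine and other small neutral amino acids enter through the exchanger ASCT2 (Slc1a5) and the sodium-coupled system A transporters SNAT1 (Slc38a1) and SNAT2 (Slc38a2). Slc1a5 had 58.3, 68.6 and 64.8 TPM in TKO-2i and 32.5, 33.2 and 36.9 TPM in TKO-serum. All 2i libraries were well above all serum libraries, with a log2 fold change of 1.01 (SE 0.06, adjusted p = 2.9e-06). Slc38a2 had 34.0, 42.3 and 33.7 TPM in TKO-2i and 125, 141 and 132 TPM in TKO-serum. It fell, with no library near the other group, by the largest fold of the 18 members with a mean of at least 10 TPM (log2 fold change -1.77, SE 0.07, adjusted p = 3.0e-07). Slc38a1 had 25.0, 34.4 and 26.8 TPM in TKO-2i and 36.3, 44.4 and 39.7 TPM in TKO-serum. The nearest libraries of the groups were close, and the log2 fold change was -0.29 (SE 0.08, adjusted p = 0.013).

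For each TPM of Slc1a5 there were 0.584, 0.617 and 0.520 TPM of Slc38a2 in TKO-2i and 3.84, 4.25 and 3.58 TPM in TKO-serum, so the order of the levels was opposite in the media. Slc38a2 had rank 3 among members in TKO-serum and rank 9 in TKO-2i. The sum of Slc1a5, Slc38a1 and Slc38a2 was 117, 145 and 125 TPM in TKO-2i and 194, 219 and 209 TPM in TKO-serum, lower in every 2i library. Slc1a4, ASCT1, which exchanges alanine, serine, cysteine and threonine, had 10.9, 13.2 and 10.4 TPM in TKO-2i and 8.69, 9.02 and 9.15 TPM in TKO-serum. It rose slightly, without overlap (log2 fold change 0.45, SE 0.06, adjusted p = 2.0e-04), on chromosome 11, where the median over tested genes was 0.26. Slc1a5 lies at chr7:16781340-16798274, Slc38a2 at chr15:96687392-96699730, Slc38a1 at chr15:96571418-96642913 and Slc1a4 at chr11:20302180-20332713.

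The glutamate and aspartate transporters of SLC1 fell where they were tested. Slc1a3 and Slc1a6 passed the filter on low counts through TKO-serum alone, so they had to differ and their p-values are left out. Slc1a1, EAAT3, which also imports cysteine, had 3.84, 3.82 and 2.86 TPM in TKO-2i and 9.20, 10.6 and 10.2 TPM in TKO-serum. The groups were apart, with a log2 fold change of -1.37 (SE 0.08, adjusted p = 2.2e-06). Slc1a3, EAAT1 or GLAST, known from astrocytes and radial glia, had 0.199, 0.252 and 0.230 TPM in TKO-2i and 2.47, 2.98 and 2.79 TPM in TKO-serum. It was scarce in all 2i libraries, where it had 8, 9 and 9 counts against 164, 215 and 194 in TKO-serum, and its log2 fold change was -4.38 (SE 0.16). The log2 value was -3.47 from length-scaled counts, and it was -3.12 with limma on log2(TPM + 0.1) and -1.61 on log2(TPM + 1). Of the 5 neural markers 4 fell as well and Nes rose, and whether differentiating cells contributed was not tested. Slc1a6, EAAT4, had 0.250, 0.109 and 0.124 TPM in TKO-2i and 0.568, 0.900 and 0.669 TPM in TKO-serum (log2 fold change -1.998). Slc1a2, known as the main astrocyte transporter, and Slc1a7, known from retina, had a highest value of 0.0676 TPM and were not tested. Slc1a1 lies at chr19:28835049-28913960 and Slc1a3 at chr15:8634124-8710764.

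Among the remaining SLC38 genes 3 rose, 2 fell and 2 did not pass the threshold. Slc38a7, SNAT7, which exports glutamine and asparagine from lysosomes, had 24.4, 28.3 and 24.0 TPM in TKO-2i and 17.9, 20.6 and 19.7 TPM in TKO-serum. It rose without overlap (log2 fold change 0.61, SE 0.05, adjusted p = 8.3e-06). Slc38a9, which reports lysosomal arginine to mTORC1, had 4.01, 6.09 and 4.61 TPM in TKO-2i and 4.75, 5.31 and 5.13 TPM in TKO-serum. These overlapped and did not pass the threshold (log2 fold change -0.21, adjusted p = 0.32 by edgeR's test), although without TKO-2i replicate 2 the value was -0.41 (adjusted p = 0.0098). Slc38a10, SNAT10, had 71.0, 78.6 and 70.0 TPM in TKO-2i and 54.8, 59.2 and 56.9 TPM in TKO-serum. It rose without overlap (log2 fold change 0.54, SE 0.06, adjusted p = 5.5e-05), on chromosome 11 with its median of 0.26. Slc38a3, SNAT3, the system N transporter of liver, kidney and astrocytes, had 1.12, 0.967 and 0.932 TPM in TKO-2i and 3.11, 3.08 and 3.48 TPM in TKO-serum. It fell without overlap (log2 fold change -1.54, SE 0.13, adjusted p = 1.8e-05), as did the scarce Slc38a5, SNAT5, of the same system (-1.50). Slc38a5 passed the filter on low counts through TKO-serum alone, so it had to differ and its p-value is left out. Slc38a8, SNAT8, had 0.989, 1.38 and 0.923 TPM in TKO-2i and 0.228, 0.328 and 0.280 TPM in TKO-serum. It rose from this low level with a log2 fold change of 1.98 (SE 0.17, adjusted p = 1.6e-05). Slc38a6 had a mean of 8.29 TPM in TKO-2i and 9.15 TPM in TKO-serum, with overlap, and did not pass the threshold (adjusted p = 0.94 by edgeR's test).

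The 2 most abundant SLC6 genes carry substrates that are not built into protein. Slc6a6, the taurine transporter, had 89.0, 108 and 86.3 TPM in TKO-2i and 58.8, 68.4 and 62.1 TPM in TKO-serum. Slc6a8, the creatine transporter, had 70.1, 83.5 and 73.9 TPM in TKO-2i and 51.6, 58.6 and 61.0 TPM in TKO-serum. Both rose without overlap, Slc6a6 with a log2 fold change of 0.61 (SE 0.05, adjusted p = 7.7e-06) and Slc6a8 with 0.59 (SE 0.05, adjusted p = 1.8e-05). Slc6a6 lies on chromosome 6, where the median over tested genes was 0.41, and after that median was taken off 0.20 remained. Slc6a15, B0AT2, a carrier of proline and branched-chain amino acids, had 13.2, 17.1 and 13.9 TPM in TKO-2i and 14.7, 16.3 and 14.8 TPM in TKO-serum. Its libraries overlapped, with a log2 fold change of -0.16 (adjusted p = 0.21 by edgeR's test) that passed the threshold without TKO-2i replicate 2 (-0.27, adjusted p = 0.010) and with a replicate block (-0.16, adjusted p = 0.038).

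Slc6a7, the proline transporter known from brain, had the highest fold among members that rose. It had 4.003, 6.83 and 5.25 TPM in TKO-2i and 0.670, 0.697 and 0.740 TPM in TKO-serum. The 2i libraries varied among themselves but all were far above serum, with a log2 fold change of 3.02 (SE 0.16, adjusted p = 9.7e-07). The gene lies at chr18:60995380-61014222 and has a single annotated transcript. Slc6a9, the glycine transporter GlyT1, had 2.72, 2.77 and 1.58 TPM in TKO-2i and 1.04, 1.11 and 1.49 TPM in TKO-serum. TKO-2i replicate 3 and TKO-serum replicate 3 nearly met, and the log2 fold change was 0.85 (adjusted p = 0.0020 by edgeR's test). Slc6a9 overlaps B4galt2 on the opposite strand (mean 6.43 TPM).

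The other SLC6 genes are known from neurons, kidney and gut and were under 1 TPM in every library. The serotonin transporter gene Slc6a4 had 0, 0 and 1 counts in TKO-2i and 14, 18 and 12 in TKO-serum. Slc6a19, B0AT1, the neutral amino acid transporter of kidney and gut, had 2, 0 and 1 counts in TKO-2i and 31 to 38 in TKO-serum. With so few counts in TKO-2i no fold is given for either. Both passed the filter on low counts through TKO-serum alone, so they had to differ and their p-values are left out. The noradrenaline transporter gene Slc6a2 (log2 fold change -2.48) passed in the same way. It had 4, 5 and 2 counts in TKO-2i and 11, 31 and 25 in TKO-serum. These genes are counted among the members that fell. The GABA transporter gene Slc6a13 fell as well (-1.68, adjusted p = 2.2e-04 by edgeR's test). Falls of Slc6a5, the glycine transporter GlyT2 (-0.84, adjusted p = 0.049 by edgeR's test), and Slc6a17, a carrier of synaptic vesicles (-0.998, adjusted p = 0.043), were lost with DESeq2 (adjusted p = 0.11 and 0.10). When single libraries were left out, the call of Slc6a5 was lost in 5 of 6 cases and that of Slc6a17 in 4 of 6, with adjusted p of up to 0.14 and 0.13. Neither gene would have passed the filter on low counts from the TKO-2i libraries alone. Slc6a16, of unknown substrate, rose (0.87, adjusted p = 0.013 by edgeR's test), which missed the threshold without TKO-2i replicate 3 (0.75, adjusted p = 0.051). The remaining SLC6 genes, Slc6a3, Slc6a11, Slc6a12, Slc6a14, Slc6a18 and Slc6a21, had a highest value of 0.231 TPM and were not tested.

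All members of SLC43 fell. Slc43a1, LAT3, and Slc43a2, LAT4, let large neutral amino acids such as leucine and phenylalanine pass down their gradient, whereas Slc43a3 is known as a carrier of purine nucleobases. Slc43a2 had 7.41, 10.8 and 7.88 TPM in TKO-2i and 15.3, 17.1 and 15.7 TPM in TKO-serum (log2 fold change -0.72, SE 0.05, adjusted p = 5.7e-06). Slc43a1 had 7.41, 7.95 and 7.01 TPM in TKO-2i and 13.3, 13.3 and 13.7 TPM in TKO-serum (log2 fold change -0.81, SE 0.06, adjusted p = 8.9e-06). Slc43a3 had 2.93, 3.48 and 2.58 TPM in TKO-2i and 6.14, 5.49 and 5.34 TPM in TKO-serum (log2 fold change -0.87, SE 0.10, adjusted p = 1.1e-04). None of the 3 genes had a 2i library that reached the serum libraries. Slc43a2 fell on chromosome 11, against that chromosome's positive median of 0.26. The falls of LAT3 and LAT4 were opposite to the rise of LAT1, and the sum of Slc7a5, Slc7a8, Slc43a1 and Slc43a2, which together make up system L, was 132, 159 and 132 TPM in TKO-2i and 109, 117 and 115 TPM in TKO-serum.

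In SLC36, the proton-coupled transporters, Slc36a1, PAT1, which exports small amino acids from lysosomes, had 10.6, 14.5 and 10.3 TPM in TKO-2i and 10.02, 10.2 and 10.01 TPM in TKO-serum. Replicates 1 and 3 of TKO-2i were hardly above serum, and the log2 fold change of 0.30 (adjusted p = 0.0046 by edgeR's test) was next to the chromosome 11 median of 0.26 and missed the threshold with limma on log2(TPM + 1) (adjusted p = 0.24). Slc36a4, PAT4, a carrier of proline and tryptophan, had 0.670, 0.700 and 0.589 TPM in TKO-2i and 1.40, 1.79 and 1.24 TPM in TKO-serum. It fell without overlap (log2 fold change -1.42, SE 0.12, adjusted p = 1.8e-05). Slc36a2, known from kidney and muscle, did not pass the threshold (adjusted p = 0.19 by edgeR's test), and Slc36a3 was not tested.

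In all, 15 members were not tested, and their highest value in any library was 0.231 TPM. Slc7a12 had no count in any library, which allows at most 0.0784 CPM in the shallowest library, taken as 3 counts; such limits cover counting error only. Without a filter on low counts 59 members were tested in edgeR, of which 17 rose and 25 fell, beside 16.7% and 18.6% of the 34355 genes then tested.

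Several members lie next to each other. Slc38a1 and Slc38a2 are 44.5 kb apart on the same strand of chromosome 15 with no coding gene between them, and both fell, to different extents (log2 fold changes -0.29 and -1.77). Slc43a1 and Slc43a3 are 73.0 kb apart on chromosome 2, on the same strand with 1 coding gene between them, and fell to a similar extent (-0.81 and -0.87). Slc36a1 and Slc36a2 are 19.3 kb apart on chromosome 11 in opposite orientation, and only Slc36a1 passed the threshold. Slc6a13 lies 5.34 kb from Slc6a12 on chromosome 6, and Slc6a19 lies 1.72 kb from Slc6a18 on chromosome 13, the second gene of each pair being too scarce to test. Of the 12 members on chromosomes 6 and 11, 9 were tested, of which 5 rose and 3 fell, where 52.5% of all tested genes on these chromosomes rose and 19.8% fell. On the other chromosomes 13 of 36 tested members rose and 18 fell, where 29.0% of all tested genes rose and 32.1% fell.

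Among the 32 members with a mean of at least 1 TPM in either medium, 27 had the same leading transcript, the one with the largest share of the gene's TPM, in both. Slc38a2 and Slc7a5 had nearly all of their TPM on 1 coding transcript, with mean shares of 96.9% and 97.7% in TKO-2i and 97.4% and 97.7% in TKO-serum. Slc7a1-201 had 97.8%, 96.3% and 96.7% of the TPM of Slc7a1 in TKO-2i and 87.4%, 90.4% and 92.6% in TKO-serum, lower in every serum library. The leading transcript of Slc3a2, Slc3a2-201, had 47.8% in TKO-2i and 47.9% in TKO-serum. The leading coding transcript of Slc38a1, Slc38a1-202, had 42.6%, 42.5% and 42.0% in TKO-2i and 29.0%, 30.0% and 30.7% in TKO-serum. This shift was larger than the spread of the replicates, and the log2 difference of Slc38a1 was -0.48 with limma on log2(TPM + 1) beside -0.29 from counts. Slc7a7 was divided over 12 annotated transcripts, and its leading one, Slc7a7-209, had only 30.7% ± 1.02 (SD, n = 3) in TKO-2i and 23.0% ± 1.30 (SD, n = 3) in TKO-serum. In Slc1a3 the leading transcripts were not coding. Slc1a3-207, a processed transcript, had 50.4% of the TPM in TKO-serum, and Slc1a3-206, a retained intron, had 42.5% in TKO-2i, where the gene had no more than 9 counts in a library. The other 4 genes with different leading transcripts were Slc38a6, Slc38a9, Slc6a9 and Slc7a2. In Slc7a2 the share of Slc7a2-203 was 30.9% ± 28.2 (SD, n = 3) in TKO-2i and 55.0% ± 8.95 (SD, n = 3) in TKO-serum, so the difference was within the spread. The division of reads between transcripts is an estimate, and shares were not tested.

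Genes that act with the transporters were described by list. Among 22 genes of the GCN2 and ATF4 response, all tested, 14 rose and 5 fell (63.6% and 22.7%, beside 31.9% and 30.6% of all tested genes), with a median log2 fold change of 0.41. Asns, asparagine synthetase, had 589, 668 and 598 TPM in TKO-2i and 151, 166 and 168 TPM in TKO-serum, more than any transporter gene in TKO-2i. It rose without overlap (log2 fold change 2.01, SE 0.05, adjusted p = 2.6e-08), on chromosome 6 with its median of 0.41. Nupr1, a stress-induced chromatin protein, had 67.0, 70.6 and 63.1 TPM in TKO-2i and 8.19, 8.31 and 9.70 TPM in TKO-serum (log2 fold change 3.05, SE 0.12, adjusted p = 2.1e-07). Pycr1, of proline synthesis (log2 fold change 1.19), and the transcription factor gene Atf3 (1.20) rose as well. Atf4 itself, singled out after its values were seen, had 241, 248 and 224 TPM in TKO-2i and 117, 112 and 120 TPM in TKO-serum (log2 fold change 1.13, SE 0.07, adjusted p = 2.0e-06). Not all of the list rose. Ddit3, Ddit4, Cebpb, Stbd1 and Gcn1l1 fell, and Chac1, Cebpg and Phgdh did not pass the threshold. Some transporter genes are known to be raised by ATF4 under amino acid shortage. Those named here were picked with values known and from no fixed list, so their number is no result. Slc3a2, Slc7a1, Slc7a5 and Slc7a11 rose in TKO-2i and Slc38a2 fell, where 31.9% of all tested genes rose and 30.6% fell. The call of Slc7a11 was lost when some single libraries were left out. What set the direction of these genes was not tested.

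Among 14 genes that make and recycle glutathione from the cystine these carriers bring in, 6 rose and 3 fell (42.9% and 21.4%, beside 31.9% and 30.6% of all tested genes), with a median log2 fold change of 0.09. Ggt1, which splits extracellular glutathione, had 32.4, 35.5 and 28.0 TPM in TKO-2i and 3.82, 2.87 and 4.43 TPM in TKO-serum. Gss, glutathione synthetase, had 84.7, 78.3 and 82.3 TPM in TKO-2i and 20.1, 20.04 and 20.6 TPM in TKO-serum. Both rose without overlap (log2 fold changes 3.11 and 2.12, adjusted p = 1.4e-07 and 3.4e-07 by edgeR's test), as did Cbs, of cysteine synthesis (0.79), and Ggt7 (0.79). The subunits of glutamate-cysteine ligase, Gclc (-0.39) and Gclm (-0.32), and Cth, of cysteine synthesis (-0.55), fell. Without TKO-2i replicate 1 the count of falls was 5.

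Of 36 genes of the machinery by which mTORC1 senses amino acids, all tested, 14 rose and 7 fell (38.9% and 19.4%, beside 31.9% and 30.6% of all tested genes), none by a fold of 2, and the median log2 fold change was 0.10. The largest were Castor2, of an arginine sensor family (-0.79), Itfg2, of the KICSTOR complex (0.73), Tbc1d7, of the TSC complex (-0.61), and Mlst8, of mTORC1 itself (0.50). Itfg2 had 28.0, 28.5 and 25.8 TPM in TKO-2i and 16.0, 19.1 and 18.2 TPM in TKO-serum, without overlap, and lies on chromosome 6. Castor2 had between 0.610 and 0.622 TPM in TKO-2i and between 1.115 and 1.16 TPM in TKO-serum, also without overlap.

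Of 26 other carriers of amino acids and peptides, 21 were tested, of which 10 rose and 6 fell (47.6% and 28.6%, beside 31.9% and 30.6% of all tested genes), with a median log2 fold change of 0.10. Slc15a1, PEPT1, the low-affinity peptide transporter of gut, had 17.0, 18.9 and 14.2 TPM in TKO-2i and 5.26, 6.19 and 6.07 TPM in TKO-serum. Slc15a2, PEPT2, its high-affinity relative of kidney, had 1.37, 2.80 and 1.56 TPM in TKO-2i and 4.06, 5.75 and 5.68 TPM in TKO-serum. These moved in opposite directions without overlap, Slc15a1 with a log2 fold change of 1.60 (adjusted p = 8.5e-07 by edgeR's test) and Slc15a2 with -1.51 (adjusted p = 1.5e-04). Their relative Slc15a4 overlapped between media and did not pass the threshold (-0.08, adjusted p = 0.30), and Slc15a3 was not tested. Sfxn3, a mitochondrial serine carrier, had 9.91, 11.9 and 10.4 TPM in TKO-2i and 3.30, 3.77 and 3.74 TPM in TKO-serum, and rose without overlap (log2 fold change 1.68, adjusted p = 2.1e-07 by edgeR's test). The vesicular glutamate transporter gene Slc17a7 fell (-1.11, adjusted p = 2.6e-05 by edgeR's test) from between 2.53 and 2.93 TPM in TKO-serum to between 1.09 and 1.23 TPM in TKO-2i.

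Of 11 partners and trafficking factors of transporters, 9 were tested, of which 2 rose and 4 fell (22.2% and 44.4%, beside 31.9% and 30.6% of all tested genes), with a median log2 fold change of -0.02. Nedd4l, a ubiquitin ligase that removes transporters from the surface, had 11.5, 15.0 and 10.7 TPM in TKO-2i and 24.6, 24.7 and 27.3 TPM in TKO-serum (log2 fold change -0.91, adjusted p = 1.3e-06 by edgeR's test). Sgk1, the kinase known to restrain Nedd4l, had 174, 197 and 178 TPM in TKO-2i and 102, 103 and 103 TPM in TKO-serum (log2 fold change 0.90, adjusted p = 1.2e-06 by edgeR's test). The enzyme and its known inhibitor thus moved in opposite directions, each without overlap between media. Laptm4b, which recruits the LAT1 and 4F2 pair to lysosomes, had 35.4, 39.8 and 35.0 TPM in TKO-2i and 67.9, 75.04 and 70.5 TPM in TKO-serum (log2 fold change -0.85, adjusted p = 9.7e-07 by edgeR's test), opposite to the rises of Slc7a5 and Slc3a2. Arrdc3, an arrestin-like adaptor, fell as well (-0.81). The count of 2 rises was 1 without TKO-serum replicate 1.

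Promoter windows of RefSeq (GRCm38.p6), from 250 bases before to 50 bases after a start, were at hand for 42 of the 60 members, in 61 windows. The core of the C/EBP-ATF response element, searched as TGATGNAA on both strands, was in 5 of these windows (8.20%) and in 3.97% of all 32851 windows. The 5 windows came from 4 genes. Those of Slc7a7 overlap and share a match, and other windows of Slc7a7 held none. The core was in 7 of 25 windows (28.0%) of the GCN2 and ATF4 genes, Asns, Atf3, Chac1, Nupr1, Pycr1, Trib3 and Vldlr. The antioxidant response element, searched as TGACNNNGC on both strands, was in 11 member windows (18.0%) and in 12.4% of all windows. The tested members with the first motif were Slc1a4 and Slc7a11, which rose, and Slc7a7, which fell, and the antioxidant motif was also found on both sides, in Slc7a1, Slc6a9, Slc36a1 and Slc6a16, which rose, and in Slc38a2, Slc43a1, Slc7a6 and Slc6a13, which fell. A match of these letters is a description of the sequence and no evidence of binding. The windows of the 3 tested members with the C/EBP-ATF core and of Asns are printed 5′ to 3′ with the matches in capitals, since genes that moved in different directions share it. They lie on the minus strand at chr11:20332664-20332963 (Slc1a4), chr3:50443564-50443863 (Slc7a11, with matches on either strand), chr14:54417895-54418194 (Slc7a7, a window with a pair of matches) and chr6:7693160-7693459 (Asns).
Slc1a4: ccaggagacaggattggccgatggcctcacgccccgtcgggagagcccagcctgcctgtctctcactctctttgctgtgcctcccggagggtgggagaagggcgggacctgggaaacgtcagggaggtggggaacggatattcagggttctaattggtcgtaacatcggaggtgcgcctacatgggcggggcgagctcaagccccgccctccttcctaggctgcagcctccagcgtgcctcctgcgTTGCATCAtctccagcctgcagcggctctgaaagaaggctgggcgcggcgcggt
Slc7a11: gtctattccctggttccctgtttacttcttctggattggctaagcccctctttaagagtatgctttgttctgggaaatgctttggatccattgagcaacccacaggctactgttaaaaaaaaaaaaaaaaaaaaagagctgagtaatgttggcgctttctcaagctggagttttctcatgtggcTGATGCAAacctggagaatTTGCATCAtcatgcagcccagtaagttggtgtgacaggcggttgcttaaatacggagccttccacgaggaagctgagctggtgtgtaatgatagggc
Slc7a7: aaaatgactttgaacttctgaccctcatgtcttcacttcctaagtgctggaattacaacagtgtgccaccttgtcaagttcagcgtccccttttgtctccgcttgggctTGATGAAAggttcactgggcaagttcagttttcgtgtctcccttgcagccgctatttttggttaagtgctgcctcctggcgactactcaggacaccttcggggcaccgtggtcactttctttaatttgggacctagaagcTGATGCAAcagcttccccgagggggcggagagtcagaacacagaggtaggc
Asns: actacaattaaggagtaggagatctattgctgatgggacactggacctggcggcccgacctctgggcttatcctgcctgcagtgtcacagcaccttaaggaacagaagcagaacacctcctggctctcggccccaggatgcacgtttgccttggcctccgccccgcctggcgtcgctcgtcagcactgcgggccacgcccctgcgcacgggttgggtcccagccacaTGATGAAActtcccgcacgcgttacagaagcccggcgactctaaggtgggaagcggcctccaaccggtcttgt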

How the data were processed

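RNA-seq of TKO mESCs in 2i and in serum was used. The authors deposited, per library and transcript, estimated counts, which are not normalized and of which 85.1% to 85.8% of the values above 0 are not whole, and TPM, scaled for transcript length. The RNA-seq methods of the paper name Tophat and mm10, whereas the deposited columns have the layout of salmon output; which quantifier made them, and its version, index and strand setting, are not given in the sources used here. Transcripts were matched to GENCODE M21 (136100 of 136288), and estimated counts, rounded, and TPM were summed per gene. Counts were filtered (filterByExpr), normalized by TMM (factors 0.970 to 1.03) and tested in edgeR 4.0.16 (R 4.3.3) by glmQLFit and glmQLFTest with the condition as only factor and Benjamini-Hochberg adjustment; a standard error is the log2 fold change over the square root of F. Family sums of TPM were compared by exact permutation tests in scipy 1.17.1. The fit was tested on simulated data. A gene with 3 counts has 0.0578 to 0.0784 CPM. DESeq2 1.42.0, limma 3.58.1 on log2(TPM + 1) and log2(TPM + 0.1), other scalings and filters and each library left out were alternatives.

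Values in every library were given for the most abundant member of each family and for tested heavy and light chains. Members with a mean of at least 10 TPM had them too. Members that rose or fell by a fold of at least 2 were included if their mean reached 1 TPM in either medium. Up to 4 genes per other list were named, by largest fold among those with adjusted p under 0.05 and at least 1 TPM. Some of these have values in every library, and others have a range or the log2 fold change alone. Further genes with values were chosen after these were seen. Members and lists were chosen with earlier results of these data known. In the lists, Slc66a1 and Gcn1 were matched under the older symbols Pqlc2 and Gcn1l1. An SLC38 gene and the values of 1 further member are not reported here.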

Additional observations from a re-analysis of the deposited data

How the results depend on the processing

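The counts of members that rose (18) and fell (21) were also 18 and 21 with the replicate number as a block. With this block 35.5% of all tested genes rose and 33.5% fell, beside 31.9% and 30.6% without it. The deviations of same-numbered libraries from their group means correlated with r = 0.242, 0.329 and 0.014. The labels state no shared batch, and these values do not settle whether replicate numbers pair the libraries. The replicate block ended the call of Slc6a5 (-0.85, adjusted p = 0.059 in edgeR) and added that of Slc6a15. Over the other settings between 13 and 18 members rose and between 13 and 25 fell. The 13 falls came with at least 10 counts required in every library, which removes genes that are scarce in 1 medium and leaves 36 members tested, and with members of at least 1 TPM only. Under the first setting 18 of the 36 members rose and 13 fell, beside 32.7% and 30.3% of all genes then tested. Under the second the shares of all genes at that level were 36.9% and 28.7%. With each library left out in turn, 16 to 17 rose and 18 to 24 fell, beside 27.3% to 33.8% and 26.8% to 33.4% of all genes then tested. Among family sums of TPM, leaving out the most abundant member gave log2 ratios of -0.54 for SLC1, 0.085 for SLC38, -1.06 for SLC36 and 1.43 for SLC3, where the scarce Slc3a1 is all that is left. Summing CPM gave 0.24 for SLC7 and 0.29 for SLC3. The SLC36 ratio lay between -0.068 and 0.18 when each library was left out. Only members that missed the threshold changed sign. Slc38a6 lay between -0.17 and 0.091 when each library was left out and at 0.057 over its chromosome's median. Length-scaled counts gave 0.036 for Slc38a9, 0.036 for Slc6a15, -0.036 for Slc7a4 and -0.099 for Slc7a14. Limma gave -0.12 for Slc7a4 with 0.1 added to TPM and -0.078 with 1 added, and -0.12 and -0.019 for Slc7a14. Slc7a14, at 0 in the edgeR fit, was at -0.024 with DESeq2, -0.018 with its size factors, -0.036 with at least 10 counts, -0.016 with no filter, -0.019 among protein-coding genes, and between -0.28 and 0.20 when each library was left out. The cause was not tested. In all, 643 log2 fold changes of members under an alternative kept their direction and, where the alternative gave an adjusted p, their side of the threshold, 45 lost the call, 3 gained one and 20 changed sign. The 25 falls came with no filter on low counts, where 59 members were tested and 16.7% of all genes then tested rose and 18.6% fell. Adding 1 to TPM before the log shrank the fold changes of scarce genes by its construction.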
